A study of Mus musculus with 6 samples.

Results

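The ephrin, semaphorin and plexin guidance genes were 50 of the 18193 genes that the array table resolves to a single symbol. They were taken by symbol, as every Eph receptor, ephrin, semaphorin and plexin gene with a probe set of its own, and the probe set whose mean over the 6 arrays was highest stood for each. They comprised 13 Eph receptors, 8 ephrins, 20 semaphorins and 9 plexins, that is 22 receptors and 28 ligands, although several ligands of the membrane-bound kinds can also signal into the cell that carries them. Ephb2 had no probe set that carried its symbol alone and was not analysed here. The cells were A2.miR200c mouse ES cells, derived from the A2lox line, in which doxycycline switches on a transgene that makes the microRNAs miR-200c and miR-141. ES cells carried on irradiated mouse embryonic fibroblasts, and passaged without them before use, were left to form embryoid bodies in Petri dishes with serum. Untreated cultures were compared with cultures that received 500 ng/mL doxycycline on days 2 and 4 (called induced here), and RNA was taken on days 3, 4 and 5. Every treatment and day had 1 array, all of the same line, and no array of a doxycycline-treated line without the microRNAs is in this series, so effects of the drug and of the microRNAs cannot be told apart.

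Ephrins are cell-surface ligands, held in the membrane by a lipid anchor (ephrin-A) or spanning it (ephrin-B), and Eph receptors are tyrosine kinases that bind them on a neighboring cell. Contact between the 2 sides can push cells apart or hold them together, and it sorts cells and sets tissue boundaries in the gastrulating embryo as well as steering axons and vessels. Semaphorins are secreted or membrane-bound ligands, and most of them act through plexins, which remodel the cytoskeleton by acting on small GTPases. Class 3 semaphorins are secreted and mostly need a neuropilin beside the plexin, with Sema3e as an exception that binds plexin D1 directly. In differentiating ES cells these families are of interest because cells change their contacts when an epithelium gives rise to mesoderm.

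The microRNAs that were induced belong to the miR-200 family, which is known for holding back the transcriptional repressors Zeb1 and Zeb2 and so for keeping epithelial cells epithelial. Their mature sequences are shown because they are the perturbation in every comparison, with the seed (bases 2 to 8 from the 5′ end, the part that chooses targets) in capitals. In RefSeq on GRCm38.p6, miR-200c-3p lies at chr6:124718324-124718346 and miR-141-3p at chr6:124717917-124717938, both on the minus strand.
miR-200c-3p: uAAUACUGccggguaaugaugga
miR-141-3p: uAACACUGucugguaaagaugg
The seeds differ by U4C, with miR-200c-3p written first and positions counted from 1 at the 5′ end.

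Snail and Zeb repressors bind the E-box CACCTG, which reads CAGGTG on the other strand, and RefSeq promoter windows (250 bases before to 50 after a gene's start, GRCm38.p6) were searched for it on both strands. At least 1 copy was in 6640 of all 32851 windows (20.2%) and in 5 of the 43 windows of guidance genes that were tested (11.6%). Of the 30 tested genes that have a window, 5 held it (Efnb2, Epha1, Plxnb2, Sema4c and Sema6d). The 3 windows printed here belong to genes whose values are described later, with the E-box in capitals, each read 5′ to 3′ on the strand of its gene. They are Efnb2 at chr8:8661193-8661492 on the minus strand, Epha1 at chr6:42373219-42373518 on the minus strand, and the second of the Sema6d windows at chr2:124653331-124653630 on the plus strand.
Efnb2: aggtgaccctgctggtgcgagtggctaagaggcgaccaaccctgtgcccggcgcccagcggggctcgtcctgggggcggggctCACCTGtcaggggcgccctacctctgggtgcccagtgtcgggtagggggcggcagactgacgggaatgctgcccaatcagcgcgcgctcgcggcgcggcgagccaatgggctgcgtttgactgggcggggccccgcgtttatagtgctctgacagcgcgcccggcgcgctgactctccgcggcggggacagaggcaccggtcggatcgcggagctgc
Epha1: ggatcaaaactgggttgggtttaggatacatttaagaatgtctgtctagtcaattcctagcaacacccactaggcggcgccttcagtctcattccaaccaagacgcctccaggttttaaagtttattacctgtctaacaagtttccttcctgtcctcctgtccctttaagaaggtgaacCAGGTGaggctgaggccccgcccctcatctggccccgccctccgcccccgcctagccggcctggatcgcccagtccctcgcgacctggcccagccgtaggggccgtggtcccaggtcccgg
Sema6d: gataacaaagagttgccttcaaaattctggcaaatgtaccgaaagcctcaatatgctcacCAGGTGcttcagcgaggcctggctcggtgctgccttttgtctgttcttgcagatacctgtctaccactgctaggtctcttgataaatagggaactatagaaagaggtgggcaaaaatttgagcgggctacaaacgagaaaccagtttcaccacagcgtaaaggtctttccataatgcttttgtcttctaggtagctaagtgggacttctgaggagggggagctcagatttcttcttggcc
A match shows only that these letters are present, and no binding was measured here.

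Levels were model-based probe set intensities on a linear scale. A background of 36.78 was taken from 77 chemosensory receptor genes (odorant, pheromone and taste), as the 95th percentile of their values. Median intensities ranged from 34.51 to 36.94 across arrays, with 48.8 to 50.1% of probe sets over that background. Of the 50 guidance genes, 35 were above it on at least 1 array. A gene was tested if its highest intensity reached 80.11, the median of all gene values, and 34 guidance genes passed (6 Eph receptors, all 8 ephrins, 13 semaphorins and 7 plexins) among 9997 genes in all. The closest above the limit were Sema3f (highest value 80.68) and Sema3a (86.21), and the closest below it was Sema4g, which reached 44.78 and was above the background on 1 array. The other 15 genes that did not pass were Epha3, Epha5, Epha6, Epha8, Epha10, Ephb1, Ephb6, Plxna4, Plxnb3, Sema3b, Sema3d, Sema3g, Sema5b, Sema6b and Sema4f, and none of them was above the background on any array. A gene can pass through the single array where it is high, so the counts that follow describe these 34 genes and not the families as a whole. In what follows the value of the untreated culture comes first and that of the induced culture after it, as intensities, and values with no day named run from day 3 to day 5. Differences are on the scale log2(intensity + 50), and folds taken from it understate the change of dim genes.

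The difference between induced and untreated cultures stayed under 2-fold for every tested guidance gene on day 3, and single genes passed 2-fold on days 4 and 5. On day 3, 14 of the 34 genes were higher and 20 lower in the induced culture, against 5177 and 4817 of all 9997 tested genes. None of the 34 reached 2-fold in either direction on that day (background over all tested genes 0.01% each way). On day 4, 22 were lower, against 4593 of all 9997 tested genes. Of the 22, 3 were lower by at least 2-fold, Efna3, Plxna2 and Sema6d (background 0.5%), and no guidance gene was 2-fold higher (background 0.08%). On day 5 the split turned, with 24 higher and 10 lower, so that 70.6% were higher against 53.2% of all tested genes. Those at least 2-fold higher were 6, Epha1, Epha2, Epha7, Sema3e, Sema4d and Sema6a (background 1.97%), and Efnb1 alone was 2-fold lower (background 1.52%). Of the 34, Sema3a reached the limit for testing only on induced day 5, and Efnb3, Plxnd1 and Sema3f only on untreated day 5. The filter thus fixed their directions in the split of 24 and 10. The median difference of the 34 genes was -0.09 on day 3, -0.05 on day 4 and 0.27 on day 5 on the log2 scale, with 0.00, 0.02 and 0.02 over all tested genes. With the mean over all probe sets of a gene, 2 genes (Epha2 and Sema3e) were at least 2-fold higher on day 5 and 1 at least 2-fold lower on day 4. Epha2 has 1 probe set, so its value could not change in this setting. Each of these daily differences rests on 2 arrays and has no error of its own. In these bulk samples, fewer cells of a type and less RNA per cell cannot be told apart.

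**Figure D1:**
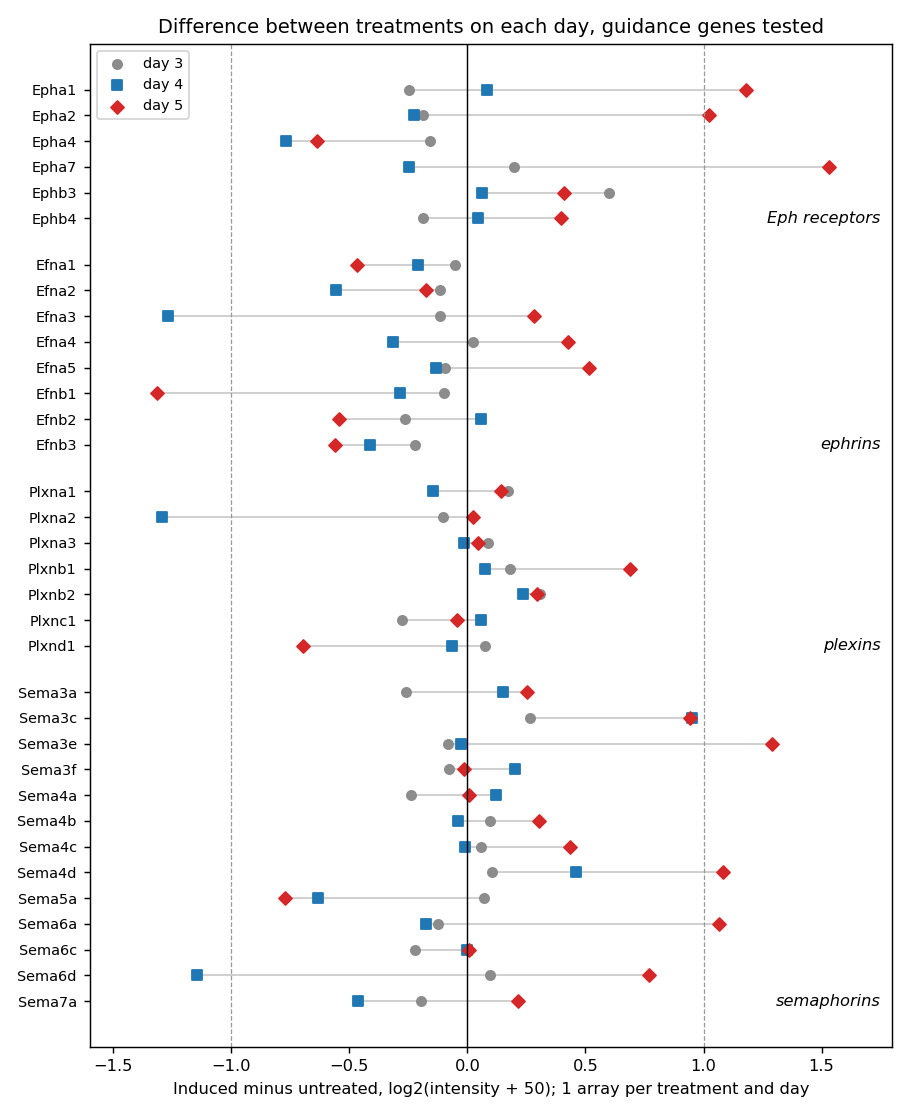
Difference between the induced and the untreated culture for the 34 tested guidance genes, as log2(intensity + 50), with 1 point for each day and dashed lines at 2-fold. On day 5, 24 points lie to the right of 0 and Efnb1, at -1.32, lies farthest to the left.

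The test of a constant effect of induction over the 3 days (limma, day as a factor, Benjamini-Hochberg adjustment over 9997 genes) called none of the 34 genes, and none of all the genes (background 0.0%). Adjusted p-values of the 34 genes ran from 0.573 to 0.951 in limma. At an unadjusted p under 0.05, limma had 6 of the 34 guidance genes, Epha4, Ephb3, Efnb3, Plxnb2, Sema3c and Sema4d, against 8.42% of all genes. The spread in this test is how far the daily differences depart from a constant, so an effect that appears on a single day widens it. When a linear change of the effect with day was added to the fit, Sema4d passed (mean difference 0.55, limma adjusted p = 0.042, background 1.45%), and Sema3c had an adjusted p of 0.052 in limma. The change of the effect per day also called no guidance gene and no gene at all (background 0.0%, lowest adjusted p of the 34 genes 0.155, for Sema4d, in limma). At an unadjusted p under 0.05, limma had 9 of the 34 in that test (13.2% of all genes), 7 with a positive slope (Epha1, Epha2, Ephb4, Efna5, Sema3e, Sema4d and Sema6a) and 2 with a negative one (Efnb1 and Sema5a). The sign of the daily difference was the same on all 3 days for 10 of the 34 genes (29.4%, against 33.6% of all tested genes), 5 higher and 5 lower. Efnb3 is among these 5 lower genes and among the 6 that limma had for a constant effect. It reached the limit for testing only on untreated day 5, so the filter fixed its direction on that day.

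Among Eph receptors, 5 of the 6 tested had higher induced values on day 5 (53.2% of all tested genes did). The median difference of the 6 was 0.71 on the log2 scale, against -0.17 on day 3 and -0.09 on day 4. Epha7, a receptor for ephrin-A ligands best known from neural patterning, measured 159 against 190 on day 3, 534 against 443 on day 4 and 196 against 661 on day 5. Its untreated level therefore peaked on day 4, while the induced level was highest on day 5, where it was 2.89-fold higher. Epha1 (also a receptor of ephrin-A ligands) measured 69.06 against 50.39 on day 3, 166 against 179 on day 4 and 30.57 against 132 on day 5. Its untreated day 5 value was likewise under the day 4 value, and below the background, and it was 2.26-fold higher in the induced culture on that day. Epha2, an ephrin-A receptor of early embryonic and epithelial cells, measured 484 against 419 on day 3, 476 against 401 on day 4 and 107 against 269 on day 5. It was lower on day 5 than on day 3 in both treatments, with log2 changes of -1.76 untreated and -0.56 induced, and was 2.03-fold higher in the induced culture on day 5. Its decrease from day 3 to day 5 passed the test over both treatments (log2 change -1.16, limma adjusted p = 0.0426), but not with the mean over probe sets, without the filter, without the intensity trend or without day 4 (limma adjusted p from 0.0531 to 0.0637 in these). Epha2 has 1 probe set, so its log2 change was the same with the mean over probe sets.

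Epha4, which binds ligands of both ephrin classes, was the single Eph receptor that was lower on day 5 in the induced culture. It measured 72.13 against 59.44 on day 3, 116 against 47.20 on day 4 and 298 against 174 on day 5. The induced value was below the untreated value on each day, with a mean difference of -0.52 ± 0.32 (SD over the 3 days, log2). Epha4 rose from day 3 to day 5 (log2 change 1.27, limma adjusted p = 0.0066), by 1.51 untreated and 1.03 induced. Of the ephrin-B receptors, Ephb3 was higher in the induced culture on each day (117 against 203, 135 against 143, then 183 against 260), and Ephb4, a receptor of ephrin-B2 in developing vessels, was 126 against 104, 112 against 118, then 98.32 against 145.

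Of the 8 ephrins, 7 were lower in the induced culture on day 4 (median difference -0.30 on the log2 scale), against 4593 of all 9997 tested genes. On day 5, all 3 ephrin-B genes were lower, and Efna3, Efna4 and Efna5 were higher while Efna1 and Efna2 were lower. Efnb1, a transmembrane ligand on the X chromosome that takes part in cell sorting, measured 181 against 166 on day 3, 138 against 105 on day 4 and 1104 against 414 on day 5. Its level stayed low until day 4 in both treatments and then climbed in both, less far in the induced culture, where it was 2.49-fold lower on day 5. All 3 Efnb1 probe sets were lower on day 5, by 1.32 to 1.52 on the log2 scale. Efnb3 measured 21.51 against 11.28 on day 3, 76.21 against 44.79 on day 4 and 132 against 73.64 on day 5. Its induced value was lower on each day, with a mean difference of -0.40 ± 0.17 (SD over the 3 days, log2), and both day 3 values were below the background. Efnb3 reached the limit for testing only on untreated day 5. The filter thus fixed its direction on that day, also in the count of the 3 ephrin-B genes. Efnb2, a ligand of Ephb4 and a marker of arterial endothelium, measured 1011 against 832, 588 against 614, then 936 against 626, so only day 5 showed a difference beyond 0.5 on the log2 scale (-0.55).

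Efna3 had one of the larger day 4 differences. It measured 150 against 135 on day 3, 738 against 277 on day 4 and 497 against 614 on day 5. The untreated level was thus at its highest on day 4 and the induced level on day 5, with a 2.41-fold lower value in the induced culture on day 4 and a log2 difference of 0.28 on day 5. A second Efna3 probe set gave -1.15 on day 4 and -0.11 on day 5, so the sign on day 5 depended on the probe set. Efna1, Efna3 and Efna4 lie near each other in the GRCm38.p6 annotation of chromosome 3. All were lower in the induced culture on day 4 (Efna1 measured 36.72 against 33.55, 55.32 against 41.16, then 146 against 91.89, and Efna4 93.27 against 95.53, 159 against 118, then 134 against 197), with log2 differences of -0.21 for Efna1 and -0.31 for Efna4, and on day 5 Efna1 was lower (-0.47) and Efna4 higher (0.43). Efna5, a ligand of several EphA receptors, measured 439 against 407, 653 against 590, then 719 against 1049, and Efna2 measured 387 against 354, 607 against 396, then 578 against 506.

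**Figure D2:**
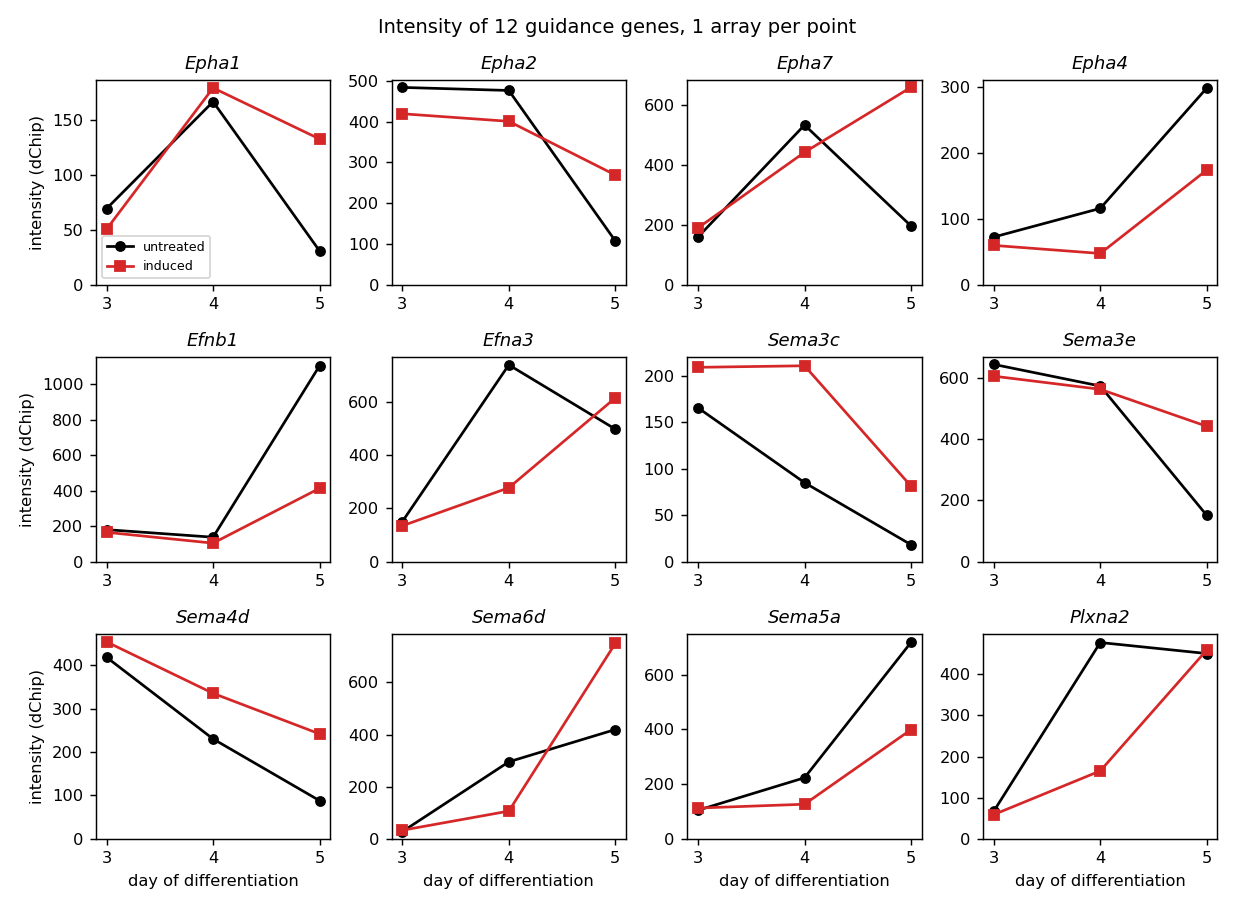
Intensity (linear scale, from 0) of 12 guidance genes on days 3, 4 and 5 in untreated (black circles) and induced (red squares) cultures, 1 array a point. Epha7 reached 661 in the induced day 5 culture while the untreated level was 196, and Efnb1 reached 1104 untreated and 414 induced.

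On day 5, 11 of the 13 tested semaphorins had higher values in the induced culture (53.2% of all tested genes did). The median difference of the 13 was 0.30 (log2). The 11 include Sema4a and Sema6c, which differed by under 0.01 (log2). Among the secreted class 3 genes, Sema3e, the ligand of plexin D1, measured 644 against 605 on day 3, 573 against 562 on day 4 and 151 against 442 on day 5. The treatments lay close together until day 4, and on day 5 the induced culture was 2.45-fold higher. All 4 Sema3e probe sets were higher on day 5, by 0.87 to 1.29 (log2). Sema3c, which attracts neural crest cells in the outflow tract of the heart, measured 166 against 209 on day 3, 85.05 against 211 on day 4 and 18.28 against 81.25 on day 5. It was higher in the induced culture on each day (mean difference 0.72 ± 0.39, SD over the 3 days, log2), and the untreated day 5 value was below the background. Sema3a, the classical repellent of axons, and Sema3f, a ligand of neuropilin 2, stayed under 90 on all arrays and differed between treatments by at most 0.26 (log2). Sema3a (64.21 against 86.21 on day 5) reached the limit for testing only on induced day 5. Sema3f (80.68 against 79.25) did so only on untreated day 5. The filter thus fixed that Sema3a was among the 11 higher on day 5 and Sema3f was not.

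Of the membrane-bound semaphorins, Sema4d, a ligand of plexin B1, measured 418 against 454 on day 3, 230 against 335 on day 4 and 87.86 against 242 on day 5. Its level fell in both treatments, further in the untreated culture, and the induced culture was 2.12-fold higher on day 5. Sema6a measured 111 against 97.68, 240 against 207, then 77.27 against 216, and was 2.09-fold higher on day 5, with a second probe set at 0.82 (log2). Sema6a and Epha1 shared the form of Epha7, a day 4 peak in the untreated culture. Sema4b measured 318 against 343 on day 3, 173 against 168 on day 4 and 107 against 143 on day 5 (log2 changes from day 3 to day 5 of -1.23 untreated and -1.02 induced). Sema4c rose to 121 untreated and 181 induced by day 5 from 69.04 and 73.92 on day 3, and Sema4a (263 to 369 over the arrays) and Sema6c (123 to 181) differed between treatments by under 0.01 on day 5 (log2).

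Sema5a and Sema6d were the semaphorins that climbed most with time. Sema5a, a transmembrane protein with thrombospondin repeats, measured 104 against 112 on day 3, 223 against 126 on day 4 and 718 against 399 on day 5. The induced value was the lower on days 4 and 5 (log2 differences -0.63 and -0.77), although a second probe set gave -0.18 on day 5. Sema6d, a transmembrane ligand of plexin A1 in the developing heart, measured 27.37 against 32.74 on day 3, 295 against 106 on day 4 and 419 against 750 on day 5. In the induced culture it was 2.21-fold lower on day 4, whereas on day 5 it was 1.70-fold higher. The other Sema6d probe set that reached the limit for testing disagreed, with 0.60 on day 4 and 0.01 on day 5 (log2). Sema7a, a lipid-anchored semaphorin that signals through integrin, measured 89.80 against 71.87, 149 against 94.84, then 112 against 137, and so was also lower on day 4 and higher on day 5 in the induced culture.

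On day 5, 5 of the 7 plexins had higher values in the induced culture (53.2% of all tested genes did). The median difference of the 7 was 0.04 (log2). The 5 include Plxna2 and Plxna3, which differed by 0.02 and 0.04 (log2). Plxna2, a receptor for class 3 and class 6 semaphorins, measured 67.03 against 58.85 on day 3, 477 against 165 on day 4 and 450 against 459 on day 5. The induced culture was 2.45-fold lower on day 4 and level with the untreated culture on day 5, and all its probe sets compared were lower on day 4 (by 0.78 to 1.29, log2). Plxnb1, the receptor of Sema4d, measured 309 against 357, 310 against 328, then 191 against 339, and was 1.61-fold higher in the induced culture on day 5. Plxnd1, the receptor of Sema3e and a gene of developing vessels, measured 19.49 against 23.12, 25.64 against 22.25, then 103 against 44.40, so it was above the background only on day 5, where it was 1.62-fold lower in the induced culture. The receptor and ligand of this last pair differed in opposite directions on day 5. Plxnd1, however, reached the limit for testing only on untreated day 5, so the filter fixed its direction on that day. Plxnb2 was higher in the induced culture on each day by a similar amount (mean difference 0.28 ± 0.04, SD over the 3 days, log2), with 305 against 390, 415 against 498, then 551 against 686. Plxna1 (178 to 295 over the arrays), Plxna3 (124 to 156) and Plxnc1 (87.03 to 116) differed between treatments by at most 0.28 (log2) on any day.

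More than one probe set reached the limit for testing in 13 of the 34 genes, with 20 further probe sets in all. The sign of the difference matched that of the chosen probe set for 16 of the 20 on day 4 and for 19 of the 20 on day 5. The size varied more than the sign. For Epha7 the day 5 difference ran from 0.62 to 1.53 and for Epha4 the day 4 difference from -0.77 to -0.14 (log2).

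**Figure D3:**
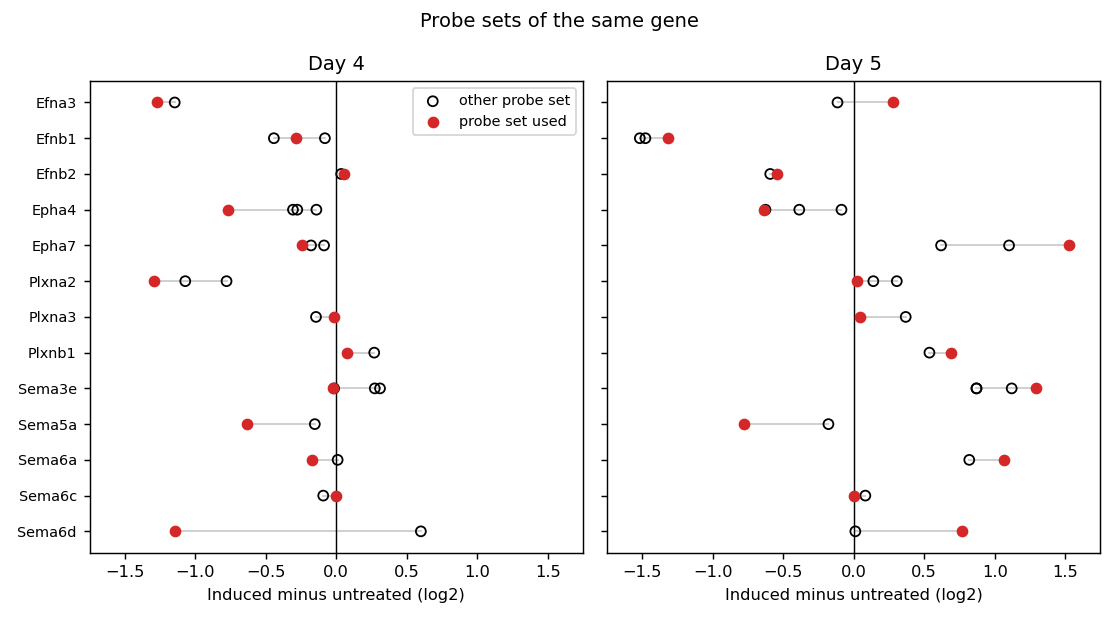
Difference between induced and untreated cultures, log2(intensity + 50), on day 4 and day 5 (red, the probe set used, and open circles, the others). Shown are the 13 genes with more than one probe set that reached the limit for testing, and only such probe sets. Efnb1 and Sema3e hold their side of 0 in all probe sets on day 5, and the Sema6d probe sets shown lie at -1.14 and 0.60 on day 4.

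Between day 3 and day 5, with both treatments in the fit, 15 of the 34 guidance genes rose and 5 fell (limma, adjusted p under 0.05). Over all tested genes 20.6% rose and 19.2% fell, and 58.8% of the guidance genes were called in either direction against 39.9% of all genes. Of the 8 ephrins, 6 rose and none fell, of the 6 Eph receptors 1 rose and 1 fell, of the 13 semaphorins 5 rose and 3 fell, and of the 7 plexins 3 rose and 1 fell. By role, 11 of 21 ligands rose and 3 fell, and 4 of 13 receptors rose and 2 fell. Efna1, Efnb3, Plxnd1, Sema3a and Sema3f reached the limit for testing only on day 5. The filter thus helped to fix that they rose, and the counts by family and by role are no support for a direction. The median log2 change was 0.51 for ligands, 0.15 for receptors and 0.00 for all tested genes. In this test both treatments of a day stand in for replicates, so the spread includes any change of the difference between them. Without day 4, 15 of the 20 calls were kept, and Epha2, Plxna1, Plxnd1, Sema3a and Sema3f no longer passed.

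With 1 probe set a gene, the largest increases were those of Sema6d (log2 change 2.94, limma adjusted p = 0.0082), Plxna2 (2.16, limma adjusted p = 0.0088) and Sema5a (1.89, limma adjusted p = 0.0046). With the mean over probe sets these changes were 0.96 for Sema6d, 1.41 for Plxna2 and 0.80 for Sema5a, and those of Efnb1 (1.53) and Efna3 (1.52) were the largest, all of them still past the threshold. With the chosen probe set, Efnb1 rose by 1.71, Efna3 by 1.65, Epha4 by 1.27 and Efnb3 by 1.18, with limma adjusted p-values of 0.0124, 0.0226, 0.0066 and 0.0046. Efna1, Efna2, Efna5, Plxnb2, Plxnd1, Sema3a, Sema3f and Sema4c rose by 0.49 to 0.97. The genes that fell were Sema3c (-1.32, limma adjusted p = 0.0085), Sema4d (-1.28, limma adjusted p = 0.0139), Epha2 (-1.16), Sema4b (-1.13, limma adjusted p = 0.0038) and Plxna1 (-0.44, limma adjusted p = 0.0383). Sema3e missed the threshold (log2 change -1.10, limma adjusted p = 0.0617), with -1.79 untreated and -0.41 induced.

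The time course of each treatment can be set side by side without a test. In the untreated cultures 9 guidance genes were at least 2-fold higher on day 5 than on day 3 and 5 at least 2-fold lower (background 5.93% and 4.86%), and in the induced cultures 9 were higher and 1 lower (background 4.67% and 3.07%). The log2 changes of Sema3c, Sema3e, Sema4d and Epha2 lay between -1.79 and -1.66 untreated and between -0.98 and -0.41 induced. Epha1 and Sema6a were lower on untreated day 5 than on day 3 (-0.56 and -0.34) and higher on induced day 5 (0.86 and 0.85). Efnb1, Sema5a and Plxnd1 climbed further untreated (2.32, 2.31 and 1.14) than induced (1.11, 1.47 and 0.37). For Plxnd1 this followed from the filter, since it reached the limit for testing only on untreated day 5. The induced day 5 level was nearer to the untreated day 4 level than to the untreated day 5 level for 21 of the 34 genes (61.8%, against 46.2% of all tested genes), a count that uses the same arrays as the daily differences.

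**Figure D4:**
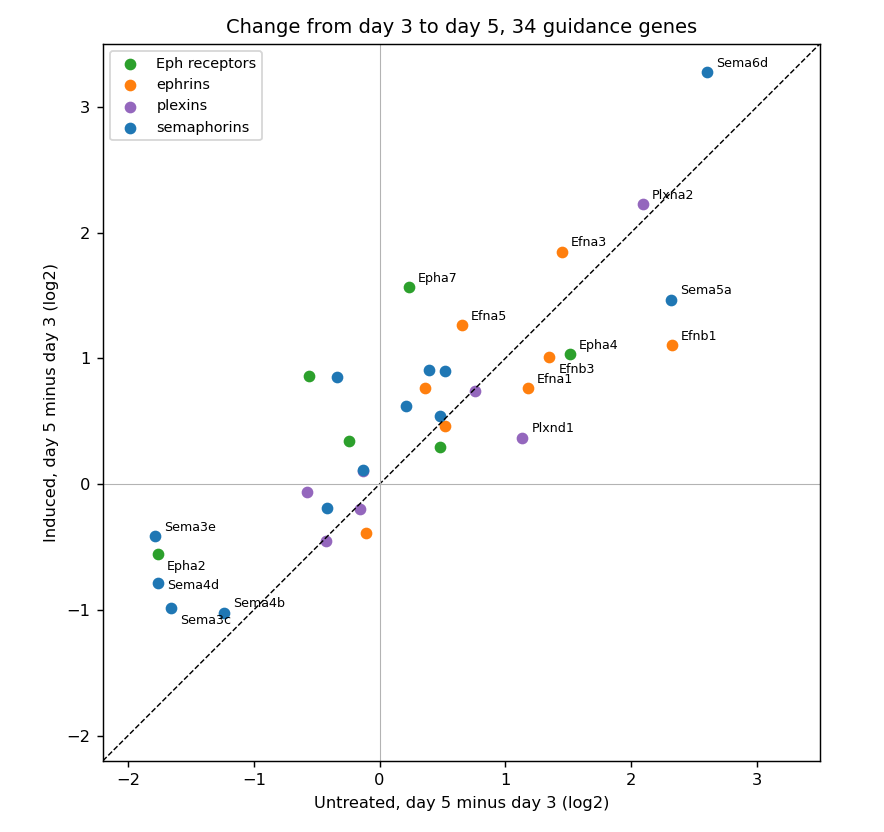
Change from day 3 to day 5 of the 34 tested guidance genes in untreated (horizontal axis) and induced (vertical axis) cultures, log2(intensity + 50), with the dashed line at equal change. Sema3e, Epha2, Sema4d and Sema3c lie above the line, with smaller decreases in the induced cultures, and Efnb1, Sema5a and Plxnd1 lie below it. Plxnd1 reached the limit for testing only on untreated day 5.

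Of 8 semaphorin co-receptor genes, 5 were tested, 4 of which rose from day 3 to day 5 and none fell (background 20.6% and 19.2%), and none was called for induction. Nrp1, which pairs with A-class plexins to receive class 3 semaphorins, measured 22.78 against 18.76 on day 3, 357 against 64.13 on day 4 and 3701 against 1516 on day 5 (mean difference -1.06 ± 0.89, SD over the 3 days, log2). Nrp2, its relative and the partner for Sema3f, measured 51.92 against 44.72, 226 against 85.66, then 397 against 188 (mean difference -0.68 ± 0.50). Both Nrp1 values of day 3 were below the background, and on days 4 and 5 both neuropilins were lower in the induced culture, where Sema3c was higher. Met, which associates with B-class plexins, had a mean difference of 0.53 ± 0.52 and L1cam, a partner of Nrp1, one of -0.21.

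Of 21 genes of semaphorin and plexin signaling, 16 were tested, and 8 rose and 1 fell from day 3 to day 5 (background 20.6% and 19.2%), with none called for induction. Of 21 genes of Eph and ephrin signaling, 17 were tested, and 7 rose and 1 fell against the same background, so that the 47.1% called lay near the 39.9% of all genes, again with none called for induction. The largest mean differences were 0.32 ± 0.15 for Pick1, which binds ephrin-B through a PDZ domain, -0.22 ± 0.09 for the kinase Abl2, -0.16 for the adaptor Nck1 and -0.15 for the exchange factor Itsn1. Of 24 genes of Slit, Robo and netrin guidance, 11 were tested, and 7 rose and none fell (background 20.6% and 19.2%), with none called for induction. Unc5c, a netrin receptor, measured 52.01 against 22.30, 67.55 against 38.51, then 574 against 101 (mean difference -0.99 ± 0.92), and Rgmb, a BMP co-receptor, Slit2 and Ntn1 had mean differences of 0.42 ± 0.46, -0.33 ± 0.52 and 0.19 ± 1.05.

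Markers of several cell types differed between treatments on the same arrays. A marker, too, could pass the filter through the single array where it was high, so counts of those tested are no support for a direction. Each list is given here with its summed intensity, and the part of these shifts in the guidance gene differences was not tested. The sums are given as the lowest to the highest of the 3 days in each treatment, not in the order of days. For the primitive ectoderm, ES cell and neuroectoderm lists, day 5 had the lowest sum in both treatments. Induced day 5 cultures had at least 2-fold higher values of all 4 primitive ectoderm markers, with sums of 1149 to 7637 untreated and 5683 to 7764 induced. All 6 ES cell and pluripotency markers had higher induced values on day 5 (sums 3143 to 16951 untreated, 7506 to 16452 induced), as were the 6 epithelial markers (15152 to 18854 untreated, 16987 to 28682 induced). Of the 5 early mesoderm markers tested out of 7 listed, all were lower on day 4 and 4 on day 5 (345 to 7501 untreated, 296 to 6686 induced). Of the 8 blood and endothelial markers, 4 were tested, and all 4 were at least 2-fold lower on day 5 (287 to 1554 untreated, 220 to 314 induced), although Cdh5, Tal1 and Fli1 reached the limit for testing only on untreated day 5, which largely fixed that count, and Pecam1, Tie1 and Emcn were below the background on every array. Of the 4 definitive endoderm markers, all were lower on day 4 and 3 higher on day 5 (281 to 4641 untreated, 280 to 6933 induced), and of the 4 neuroectoderm markers tested out of 6, 3 were higher on day 5 (427 to 945 untreated, 620 to 895 induced), with Neurog2 below the background on every array. Sox1, among those 3, was at 9.89 against 14.70 on day 5, both below the background, and reached the limit for testing only on untreated day 3. Pax6, which was not tested, was at 11.59 against 6.09 on day 5, also below the background. Of the 6 markers of feeder fibroblasts, 3 were tested and all 3 were lower in the induced culture on day 5 (206 to 849 untreated, 211 to 290 induced), of which Col1a1 was at 577 against 89.68 and Postn reached the limit only on untreated day 5 (83.19 against 24.77). Of those not tested, Thy1 was at 28.47 against 22.55 on day 5, Dcn at 3.77 against 23.44 and Lum at 20.10 against 24.50, all below the background, as Lum was on every array.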

How the data were processed

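RNA from 6 embryoid body samples was hybridized to Affymetrix MOE430 2.0 arrays. The deposited values were intensities on a linear scale that the authors normalized and modeled in dChip. Of 45037 probe sets, 34945 carried 1 gene symbol in the platform annotation, 932 several and 9160 none, and the latter kinds were left out. Probe sets of a gene were not averaged, and the one with the highest mean was used. Values were taken as log2(intensity + 50). Tests used limma 3.58.1 in R 4.3.3 (lmFit, eBayes with trend, two-sided), with Benjamini-Hochberg adjustment at 0.05 over 9997 genes. Induction and day 5 minus day 3 came from a fit with treatment and day as factors (2 residual and 3.05 prior degrees of freedom), and the change of effect per day from a fit with treatment by linear day (1 residual and 4.78 prior). The fits were checked on simulated data. Differences within a day or treatment were counted at 2-fold without a test. Nothing said that arrays came from separate cultures, so p-values measure only the spread between these samples. The number of arrays limits the precision. Every tested guidance gene was named, with values on all arrays for those at 2-fold between treatments on any day, those called for day 5 minus day 3 at 2-fold and the 10 with the largest mean absolute difference, and up to 4 genes of each pathway list with the largest mean difference. Single genes of the semaphorin and plexin signaling list are not reported here. Further values of single genes were added for their roles after they were seen. The genes, lists and tests were chosen with earlier results of these data known. Alternatives were a pseudocount of 16, quantile normalization, no filter, no trend, the mean over a gene's probe sets, leaving out each day, and a linear day term. Promoter and microRNA sequences came from RefSeq on GRCm38.p6, and 44 of the 50 genes had a promoter window.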

Additional observations from a re-analysis of the deposited data

Results flagged for a closer look

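Sema6d stood out because its difference between treatments turned from one day to the next, with -1.14 on day 4 and 0.77 on day 5 (log2, induced minus untreated), each beyond 1.5-fold. The difference between the 2 days was not tested, since each rests on 1 array a treatment. A second Sema6d probe set, with a highest intensity of 84.88, gave 0.60 on day 4 and 0.01 on day 5.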

How the results depend on the processing

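No direction reversed. Adding a linear day term to the induction fit raised the guidance genes called from 0 to 1. From day 3 to day 5, 5 genes fell, and 3 did with the mean over probe sets or without day 4. At 2-fold on day 4, 0 genes were higher and 1 with a pseudocount of 16, and 3 were lower and 1 with the mean over probe sets. At 2-fold on day 5, 6 were higher and 2 with the mean over probe sets, of which Epha2 has 1 probe set and could not change. In that setting Epha1, Epha7, Sema4d and Sema6a gave 0.51, 0.87, 0.34 and 0.82 (log2). From day 3 to day 5 at 2-fold, 5 untreated genes were lower and 2 with the mean over probe sets, and 9 induced genes were higher, 14 with a pseudocount of 16 and 4 with the mean over probe sets. Similarly, 1 induced gene was lower, 2 with a pseudocount of 16 and 0 with the mean over probe sets. The causes were not tested, and leaving out day 4 also leaves fewer arrays. Of the 20 calls for day 5 minus day 3, 20 were kept with a pseudocount of 16, 19 with quantile normalization (Efna2 lost), 17 without the filter (Efna2, Epha2 and Plxna1 lost), 17 without the trend (Efna2, Epha2 and Plxnd1 lost) and 15 without day 4 (Epha2, Plxna1, Plxnd1, Sema3a and Sema3f lost). With the mean over probe sets 14 of the 18 still tested were kept (Efna2, Epha2, Plxna1 and Plxnd1 lost). Epha2 and Plxnd1 have 1 probe set each, so their log2 changes stayed the same and only their adjusted p-values moved. No paired analysis was possible because each treatment and day has 1 array, other than the pairing of treatments within each day that the day term of the induction fit already holds. With 1 array a treatment and day, a difference seen on a single day has no measured error.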
